A study of Mus musculus with 10 samples.

Results

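The genes described here encode the proteins that fuse and divide mitochondria: the fusion GTPases Mfn1, Mfn2 and Opa1, the proteases Oma1 and Yme1l1 that cut OPA1, and the fission genes Dnm1l, Fis1, Mff, Mief1 and Mief2. They were chosen by symbol, with earlier results of these data known but with no measured value in the rule, and are 10 of the 55385 genes in the deposited count table. All 10 were found and all 10 passed the filter on low counts. RNA came from the left ventricle of mice labelled C56Bl6, in 2 groups of 5 libraries. Control animals ate a standard diet for 6 weeks. HFpEF animals were given high-fat feed together with L-NAME, which blocks nitric oxide synthases, over the same time. The combination serves as a mouse model of heart failure with preserved ejection fraction. No allele or transgene is named for either group, and the labels give neither the age of the animals nor whether each library came from its own mouse. The p-values therefore measure the spread between these libraries, which may be technical.

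Mitochondria in most cells form a network whose shape is set by the balance of fusion and division. Mitofusins join outer membranes and OPA1 joins inner membranes and shapes cristae, while the dynamin-like GTPase DRP1, encoded by Dnm1l, is recruited from the cytosol by receptors on the outer membrane and constricts the organelle. In adult cardiomyocytes mitochondria are packed between myofibrils and move little, and loss of either arm of the machinery in mouse heart is known to cause cardiomyopathy. Much of the control of these proteins is exerted after translation, by cleavage of OPA1, phosphorylation of DRP1 and ubiquitination of mitofusins, none of which an RNA count measures.

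Several members are paralogs, so the reach of the counts was first checked on sequence. The longest identical run within the coding sequences of Mfn1 and Mfn2 was 21 bases, and that of Mief1 and Mief2 was 16 bases. No stretch of 31 bases was shared by either pair. The run of Mief1 and Mief2 is shown with 20 bases on each side, to show how short it is, read on the gene's own strand from the GENCODE M21 principal transcripts (build GRCm38, which is mm10), with the shared part in capitals. The Mief1 stretch is at chr15:80249544-80249599 and the Mief2 stretch at chr11:60731382-60731437, both on the plus strand and within 1 coding exon.
Mief1: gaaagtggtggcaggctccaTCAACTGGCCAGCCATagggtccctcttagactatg
Mief2: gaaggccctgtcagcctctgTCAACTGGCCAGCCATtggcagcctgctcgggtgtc
A search of all annotated transcripts for matches of at least 200 bases at 95% identity found 2 other gene models, each matching 1 member. AC140267.1 lies within Mief1 and matched it over 213 bases, and the processed pseudogene Gm14897 matched Yme1l1 over 207 bases at 96.1% identity. Both held 0 counts in every library.

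Control libraries held 31555001 to 46108710 counts, and HFpEF libraries 31286355 to 33604554. Control 4 and Control 5 were the deepest libraries and had the lowest shares of counts on transcripts of the mitochondrial genome, 34.4% and 33.6%. That share was 35.7% ± 1.70 in Control and 37.6% ± 0.897 in HFpEF (SD, n = 5, two-sided exact permutation p = 0.0635). It takes in symbols that begin with mt-, and not Gm28437 and Gm28661, which held 3.85% and 3.72% of all counts. An alternative fit left all of these out. It called 0 members, and their median log2 fold change was 0.047, against 0.048 with them kept. The part of the share in the values below was otherwise not tested. Of 8 markers of ventricular cardiomyocytes 1 was called lower, Tnnt2, named after its value was seen. The summed level of the 8 was 26650 to 28560 CPM in the Control libraries and 25730 to 28070 CPM in those of HFpEF, where CPM are counts scaled to library size with edgeR's TMM factors. Markers of atrial muscle (0.681 to 1.28 CPM), adipocytes (0.0298 to 0.499 CPM) and skeletal muscle (0.0666 to 0.296 CPM) were near 0. Fibroblast, endothelial, smooth muscle and pericyte, macrophage, lymphocyte and erythroid lists, 25 genes in all of which 24 were tested, held 0 calls by edgeR or limma voom and 1 by DESeq2, the macrophage marker Csf1r (log2 fold change -0.38, adjusted p = 0.042; named after its value was seen), with 6 genes at an unadjusted edgeR p below 0.05. Among all genes tested, edgeR called 5.33%, and 20.5% had an unadjusted p below 0.05. DESeq2 called 1422 of 18090 genes and limma voom 908 of 18491. Summed CPM of endothelial markers were 637.5 to 756.7 in Control and 593.6 to 660.3 in HFpEF. Those of macrophages were 69.8 to 104.2 and 59.47 to 74.05. Smooth muscle and pericyte sums were 606.7 to 714.8 and 666.5 to 769.1. Fibroblast sums were 397.7 to 524.3 and 444.6 to 480.7, and erythroid sums 423.2 to 616.4 and 398.6 to 692.6. Lymphocyte sums were 0.6374 to 1.16 and 0.7138 to 1.409. The groups overlapped in each list. In bulk tissue, fewer cells of a type and less RNA per cell cannot be told apart.

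Per kilobase of merged exons, Mfn2 was the most abundant member and Mief1 the least. In Control the mean levels were 76.7 CPM per kilobase for Mfn2, 22.1 for Mfn1, 20.4 for Opa1, 15.9 for Dnm1l and 8.06 for Yme1l1. They were 7.09 for Oma1, 5.84 for Fis1, 5.48 for Mff, 4.81 for Mief2 and 3.02 for Mief1. By this length the 3 fusion GTPases stood above the receptors and adaptors of fission. Neighbours whose Control libraries overlapped were Opa1 and Dnm1l, Yme1l1 and Oma1, Fis1 and Mff, and Mff and Mief2. In HFpEF the libraries of Mfn1 and Opa1 overlapped (means of 21.15 and 21.19 CPM per kilobase), while those of Opa1 and Dnm1l, and of Mff and Mief2, did not. The place of Mff rests on the length used, because its annotated exons add up to 9757 bases and its principal transcript to 1894. Divided by principal transcript length, Mff moved from the eighth to the third place, with 28.2 CPM per kilobase in Control.

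**Figure D1:**
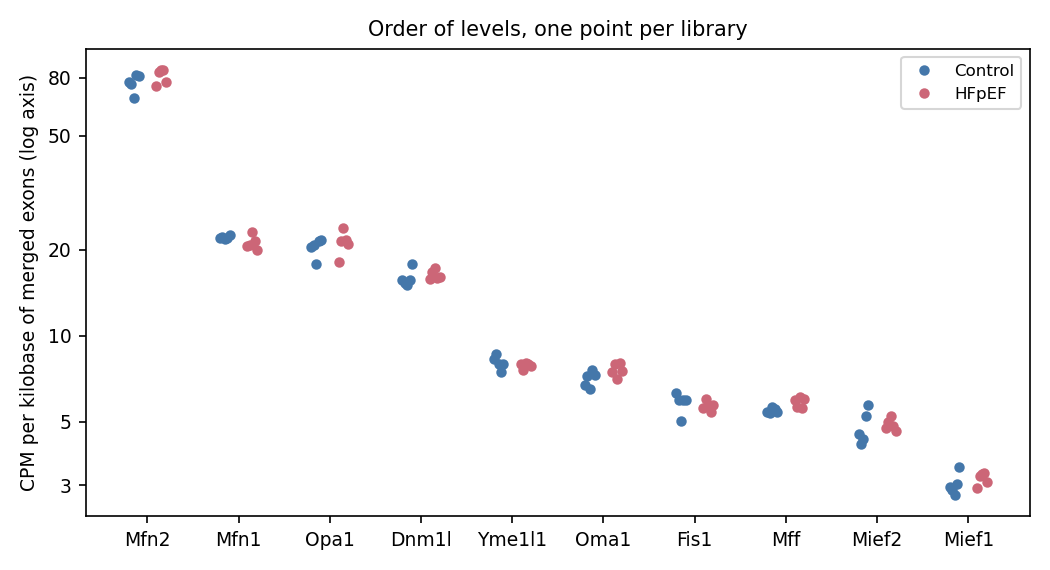
Level of each gene per library, in CPM per kilobase of merged exons on a log axis, ordered by the Control mean. Mfn2 lies above all others at 67.8 to 85.0, and Control (blue) and HFpEF (red) points overlap for each gene.

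The comparison asks whether transcripts of the fission and fusion machinery differed in the ventricle after the regimen. None of the 10 was called at an adjusted p below 0.05 (edgeR's quasi-likelihood test, Benjamini-Hochberg adjustment over 18491 genes), where 5.33% of all genes tested were. DESeq2 and limma voom also called 0 of the 10, where they called 1422 of 18090 and 908 of 18491 genes. Among the 7458 genes at least as abundant as Fis1, the member with the lowest CPM, 8.51% were called. At an unadjusted p below 0.05 there was 1 member, Mff, against 20.5% of all genes. The log2 fold changes of HFpEF against Control ran from -0.06 (Mfn1) to 0.10 (Oma1), 7 above 0 and 3 below, with a median of 0.05 against -0.01 over all genes tested. Their median size without sign was 0.06, against 0.11 over all genes and 0.08 over those at least as abundant as Fis1. Control and HFpEF libraries overlapped for each of the 10, whereas they did not for 6.81% of all genes.

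The standard errors of the members lay between 0.04 and 0.08 on the log2 scale, and their 95% intervals, taken 1 gene at a time, all lay between -0.19 and 0.23. In percent of the Control level, the intervals reached from -12.1% (Fis1) to 17.0% (Oma1). Differences inside these intervals were not detectable with 5 libraries a group.

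**Figure D2:**
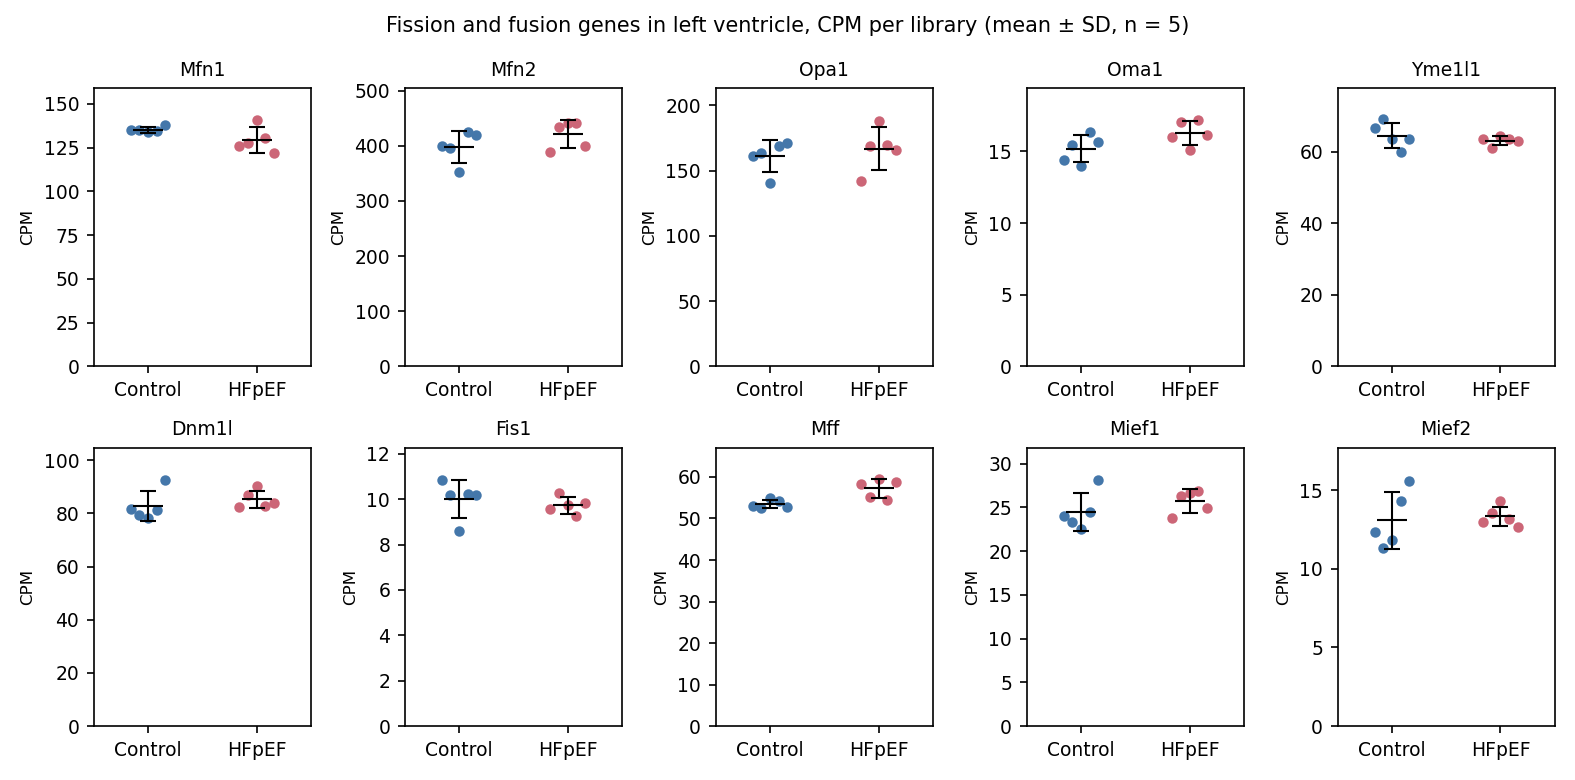
CPM of each gene in each library, Control in blue and HFpEF in red, with the mean and SD of 5 libraries and axes from 0. The groups overlap in each panel, and the Control 5 point of Dnm1l (92.6 CPM) and the Control 3 point of Fis1 (8.61 CPM) sit apart from the others of their group.

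The outer membrane fusion genes gave small values on either side of 0. Mfn1 (ENSMUSG00000027668.13; mm10 chromosome 3, 32529465 to 32579239, plus strand) encodes the mitofusin with the stronger tethering activity. It stood at 135, 135, 134, 134 and 138 CPM in Control 1 to 5 and at 126, 127, 141, 131 and 122 CPM in HFpEF 1 to 5. Control libraries were nearly equal, and 4 of the 5 HFpEF libraries lay below all of them, with HFpEF 3 above all of them. The means were 135 ± 1.58 and 129 ± 7.24 CPM (SD, n = 5), with a log2 fold change of -0.06 ± 0.05 (SE; 95% interval -0.16 to 0.04; adjusted p = 0.481).

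Mfn2 (ENSMUSG00000029020.13; chromosome 4, 147873599 to 147904704, minus strand) encodes the mitofusin that also links mitochondria to the endoplasmic reticulum. Its Control libraries held 399.9, 395, 352, 426 and 419.8 CPM, and its HFpEF libraries 389, 434, 441, 442 and 399 CPM. Control 3 was the lowest of the 10, and HFpEF 2, 3 and 4 exceeded every Control library. The means were 399 ± 28.9 and 421 ± 24.8 CPM, with a log2 fold change of 0.08 ± 0.06 (SE; 95% interval -0.05 to 0.21; adjusted p = 0.492). Without Control 3 it was 0.04.

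Opa1 (ENSMUSG00000038084.16; chromosome 16, 29579334 to 29654884, plus strand) encodes the inner membrane GTPase. It measured 161, 163, 140.1, 169 and 171 CPM in Control and 142, 169, 188, 169.9 and 166 CPM in HFpEF. Each group had 1 library near 140.1 to 142 CPM, Control 3 and HFpEF 1, and HFpEF 3 was the highest. HFpEF against Control gave a log2 fold change of 0.05 ± 0.07 (SE; 95% interval -0.10 to 0.20; adjusted p = 0.731). It was 0.0075 without Control 3, 0.0073 without HFpEF 3 and 0.11 without HFpEF 1.

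The proteases that cut OPA1 did not differ detectably either. OMA1 is activated by stress and by loss of membrane potential and cleaves long OPA1 into short forms. Oma1 (ENSMUSG00000035069.3; chromosome 4, 103313812 to 103371868, plus strand) measured 14.4, 15.5, 14.02, 16.4 and 15.7 CPM in Control and 15.99, 17.1, 15.1, 17.2 and 16.2 CPM in HFpEF. HFpEF 2 and HFpEF 4 lay above all Control libraries, and Control 1 and Control 3 lay below all HFpEF libraries. Its log2 fold change of 0.10 ± 0.06 (SE; 95% interval -0.03 to 0.23; adjusted p = 0.366) was the largest of the members and was not called.

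YME1L cleaves OPA1 constitutively at a separate site. Yme1l1 (ENSMUSG00000026775.9; chromosome 2, 23156369 to 23199260, plus strand) measured 66.6, 69.1, 63.7, 59.8 and 63.7 CPM in Control. In HFpEF it measured 63.7, 60.99, 64.4, 63.7 and 62.95 CPM. The HFpEF values lay inside the Control range. This gave a log2 fold change of -0.03 ± 0.05 (SE; 95% interval -0.13 to 0.07; adjusted p = 0.759).

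Among the fission genes, Dnm1l (ENSMUSG00000022789.15; chromosome 16, 16312230 to 16358959, minus strand) encodes the dynamin-like GTPase that constricts mitochondria and peroxisomes. It stood at 81.7, 79.4, 78.4, 81.3 and 92.6 CPM in Control and at 82.5, 87.0, 90.1, 82.7 and 83.8 CPM in HFpEF. Control 5 was the highest of the 10 libraries, and the other 4 Control libraries lay below every HFpEF library. The log2 fold change was 0.04 ± 0.05 (SE; 95% interval -0.07 to 0.16; adjusted p = 0.701). Without Control 5 it was 0.10 (adjusted p = 0.283). An antisense gene overlaps 4.67% of its exonic bases, and the sources used here do not say whether counting used strand.

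Mff (ENSMUSG00000026150.14; chromosome 1, 82724890 to 82752394, plus strand) encodes the main receptor of DRP1 on the outer membrane. It measured 52.9, 52.5, 54.9, 54.2 and 52.8 CPM in Control and 58.3, 55.2, 59.5, 54.6 and 58.8 CPM in HFpEF. All HFpEF libraries but HFpEF 4 exceeded the highest Control library, and HFpEF 4 exceeded all Control libraries but Control 3. The means were 53.5 ± 1.04 and 57.3 ± 2.24 CPM. The log2 fold change was 0.10 ± 0.04 (SE; 95% interval 0.01 to 0.19), with an unadjusted p of 0.0353 and an adjusted p of 0.205 in edgeR's test, so Mff was not called. Among its alternatives the adjusted p ran from 0.102 (DESeq2) to 0.438 (no filter on low counts).

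Fis1 (ENSMUSG00000019054.13; chromosome 5, 136953275 to 136966234, plus strand) encodes a small tail-anchored outer membrane protein that was long described as a DRP1 receptor. It measured 10.8, 10.2, 8.61, 10.2 and 10.2 CPM in Control and 9.58, 10.3, 9.73, 9.26 and 9.83 CPM in HFpEF, so all HFpEF libraries lay inside the Control range. Its log2 fold change was -0.04 ± 0.07 (SE; 95% interval -0.19 to 0.10; adjusted p = 0.788). It was -0.09 without Control 3 and -0.01 without Control 1.

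Mief1 and Mief2 encode MiD51 and MiD49, adaptors that bind DRP1 at the outer membrane. Mief1 (ENSMUSG00000022412.14; chromosome 15, 80234018 to 80253371, plus strand) measured 24.0, 23.4, 22.5, 24.5 and 28.1 CPM in Control and 23.8, 26.3, 26.7, 26.9 and 24.9 CPM in HFpEF. Mief2 (ENSMUSG00000018599.5; chromosome 11, 60728398 to 60732951, plus strand) measured 12.3, 11.3, 11.9, 14.3 and 15.6 CPM in Control and 13.0, 13.5, 14.3, 13.2 and 12.7 CPM in HFpEF. Control 5 was the highest library for both genes, and for Mief2 Control 4 and HFpEF 3 came next at nearly the same level. The log2 fold changes were 0.07 ± 0.06 for Mief1 (SE; adjusted p = 0.595) and 0.02 ± 0.08 for Mief2 (SE; adjusted p = 0.921). With Control 4 and Control 5 left out together, an alternative chosen after seeing the data, they were 0.14 and 0.17, with adjusted p-values of 0.198 and 0.173. In that comparison 0 of the 10 members were called, against 773 of 18881 genes. The median log2 fold change of the members was 0.11, against -0.0079 over all genes. Of the members 3 had an unadjusted edgeR p below 0.05, and the share of all genes below it was not computed for that fit.

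**Figure D3:**
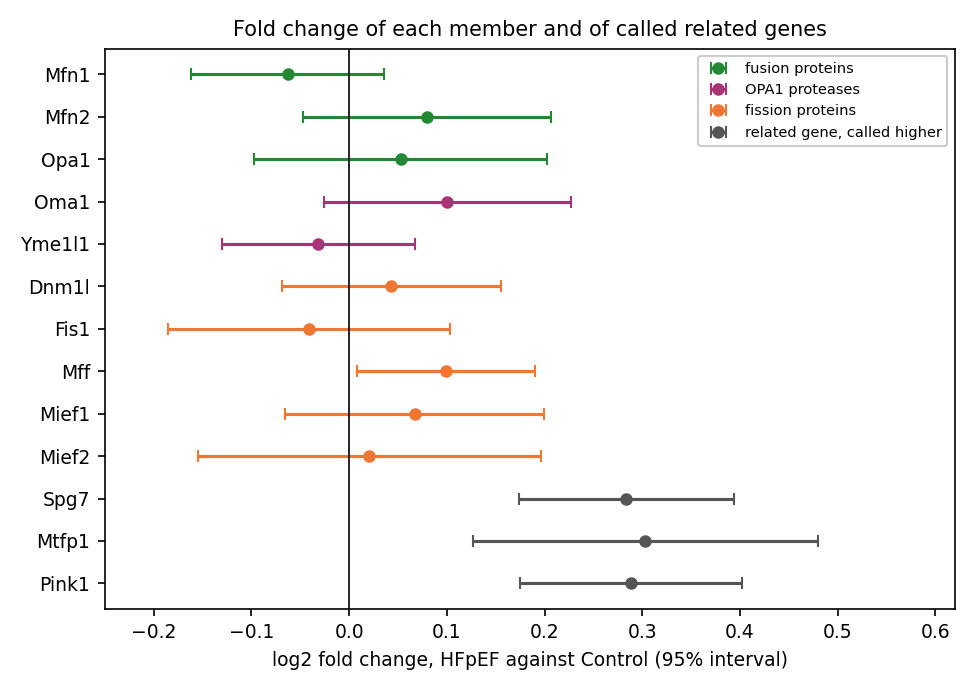
Log2 fold change of HFpEF against Control with its 95% interval for the 10 genes, coloured by role, and for the 3 related genes called higher (grey). The intervals of the members lie between -0.19 and 0.23, and that of Mff is the one that leaves out 0.

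Ratios between members within a library do not depend on how libraries are scaled to each other, and they are given as a description. Mfn2 counts were 2.96, 2.93, 2.64, 3.17 and 3.05 times those of Mfn1 in Control and 3.10, 3.41, 3.13, 3.38 and 3.28 times in HFpEF. The groups overlapped through Control 4, and the means were 2.95 ± 0.198 and 3.26 ± 0.141 (SD, n = 5). The ratio of Opa1 to Dnm1l, an inner membrane fusion gene against the fission GTPase, was 1.95 ± 0.128 in Control and 1.96 ± 0.142 in HFpEF. That of Oma1 to Yme1l1, the stress-activated against the constitutive protease, was 0.236 ± 0.0239 and 0.258 ± 0.0174. Mief1 to Mief2 stood at 1.89 ± 0.132 and 1.93 ± 0.0816, and Mff to Fis1 at 5.38 ± 0.578 and 5.89 ± 0.305. The libraries of the groups overlapped in all 5 ratios. Together the 10 genes took 8.87 to 10.96 of every 10000 counts in Control libraries and 9.21 to 9.74 in HFpEF libraries.

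**Figure D4:**
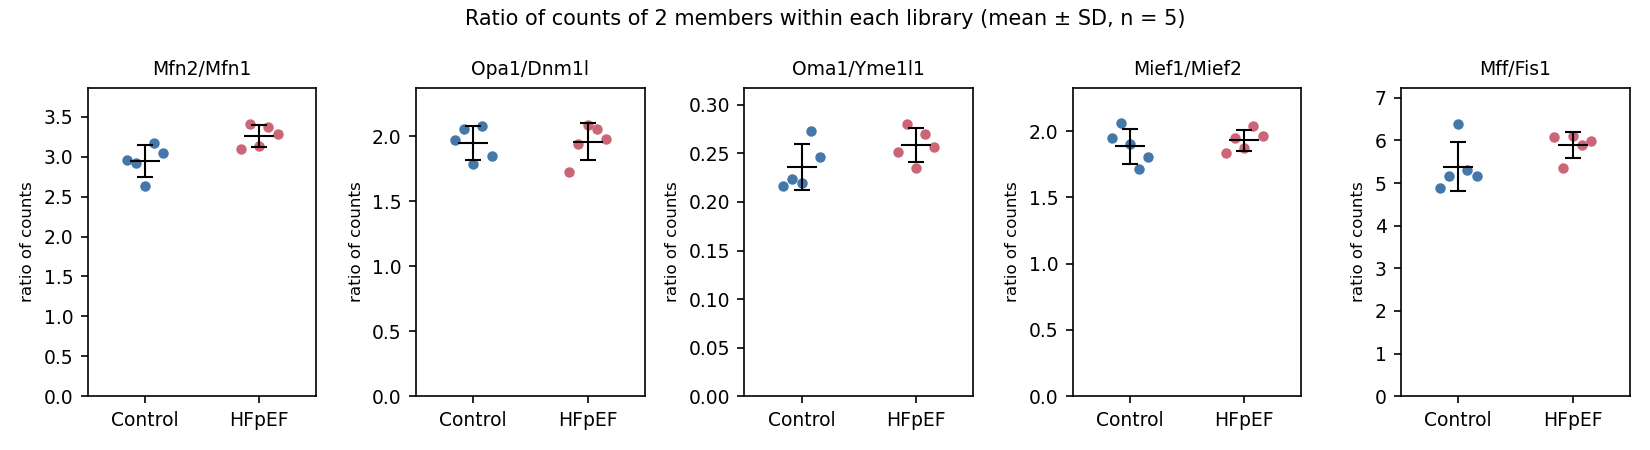
Ratio of the counts of 2 members in each library, Control in blue and HFpEF in red, with the mean and SD of 5 libraries and axes from 0. Mfn2 to Mfn1 lies at 2.64 to 3.17 in the Control and 3.10 to 3.41 in the HFpEF libraries, and the groups overlap in each panel.

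Around these 10, 39 genes that scaffold, degrade, ubiquitinate or transport mitochondria were listed, and 38 were tested. The gene not tested, the fission-linked Gdap1, was named after its values were seen and held 0 to 5 counts per library. Of the 38, edgeR called 3 higher and 0 lower and left 35 not called, against 3.24% higher and 2.09% lower among all genes tested. DESeq2 called 4, all higher, where over 18090 genes it called 926 higher and 496 lower. With limma voom 2 were called, where over 18491 genes it called 567 higher and 341 lower. The median edgeR log2 fold change of the 38 was 0.04. Most of the 38 were at least as abundant as Fis1, and of all such genes 8.51% were called in either direction. At an unadjusted p below 0.05 there were 12 of the 38, against 20.5% of all genes tested.

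Among 16 inner membrane scaffold and protease genes 1 rose, Spg7, and 15 were not called. Spg7 (ENSMUSG00000000738.18; chromosome 8, 123062942 to 123097760, plus strand) encodes paraplegin, a subunit of the matrix-facing AAA protease. It measured 32.3, 30.03, 30.99, 34.03 and 30.4 CPM in Control and 38.8, 36.6, 40.4, 40.4 and 35.9 CPM in HFpEF. All HFpEF libraries lay above all Control libraries. The log2 fold change was 0.28 ± 0.05 (SE; 95% interval 0.17 to 0.39; adjusted p = 0.00514). A partner subunit, Afg3l2, named after its value was seen, had a log2 fold change of 0.01 ± 0.06 (SE; adjusted p = 0.962). Afg3l1 of the same list, also named after its value was seen, had 0.05 ± 0.06 (SE; adjusted p = 0.734).

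Of 5 genes of the ubiquitin control of mitofusins 1 rose, Pink1, and 4 were not called. Pink1 (ENSMUSG00000028756.12; chromosome 4, 138313409 to 138326307, minus strand) encodes a kinase that accumulates on depolarised mitochondria. It measured 157, 152, 149, 168 and 142 CPM in Control and 199, 179, 190.0, 191 and 177 CPM in HFpEF. The groups did not overlap, and the log2 fold change was 0.29 ± 0.05 (SE; 95% interval 0.17 to 0.40; adjusted p = 0.00593).

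Of 9 tested fission helpers 1 rose, Mtfp1, and 8 were not called. Mtfp1 (ENSMUSG00000004748.5; chromosome 11, 4091480 to 4095445, minus strand) encodes an inner membrane protein linked to fission. It measured 18.2, 17.6, 14.7, 19.4 and 20.6 CPM in Control and 20.1, 23.3, 24.9, 22.6 and 20.9 CPM in HFpEF, and the groups overlapped through Control 5 and HFpEF 1. The log2 fold change was 0.30 ± 0.08 (SE; adjusted p = 0.0463). This call was kept in 2 of the 10 fits that left out 1 library, without Control 5 (adjusted p = 0.0206) and without HFpEF 1 (adjusted p = 0.0294), and ended without each of the other 8 (adjusted p up to 0.123).

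Among the 4 fusion helpers and the 4 genes of transport along microtubules there was no call by edgeR, and 3 and 2 genes had an unadjusted p below 0.05, a threshold that 20.5% of all genes passed. DESeq2 called 0 and 1 in these lists, and limma voom called 0 in both. Over all genes they called 1422 of 18090 and 908 of 18491. The smallest p-values were those of Miga1, an outer membrane protein that promotes fusion, and Trak1, an adaptor between mitochondria and motor proteins. Miga1 averaged 15.2 ± 0.528 CPM over Control and 13.5 ± 0.512 CPM over HFpEF libraries (SD, n = 5; log2 fold change -0.17 ± 0.05, SE; adjusted p = 0.0694). Trak1 stood at 210.1 ± 14.2 and 240.4 ± 15.4 CPM (log2 fold change 0.19 ± 0.06, SE; adjusted p = 0.0699), and DESeq2 called it (adjusted p = 0.0221). The groups did not overlap for 4 of the 38 genes: Spg7, Pink1, Miga1 and, named after its value was seen, Rhot1. Over all genes tested they did not overlap for 6.81%. Whether Spg7, Pink1 or Mtfp1 differed in response from the 10 members was not tested.

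**Figure D5:**
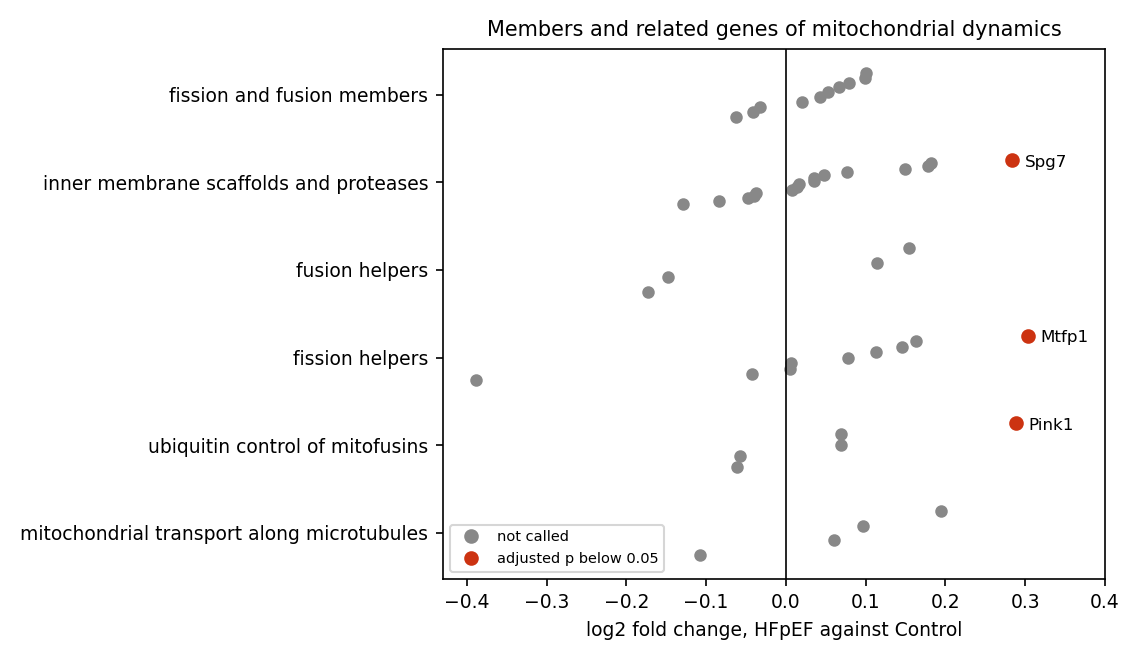
Log2 fold change of HFpEF against Control for the 10 genes and for each list of related genes, 1 point per gene, with genes at an adjusted p below 0.05 in red. Spg7, Mtfp1 and Pink1 lie at 0.28 to 0.30, and the 10 members between -0.06 and 0.10.

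As no member was called, the pattern of the member with the smallest p, Mff, was compared with that of 8276 other genes whose mean log2 CPM reached 3 or more. Likeness was the mean absolute difference in log2 CPM, centred over the 10 libraries. The closest 3 were Macf1, a cytoskeletal crosslinker (0.021), Kat6a, a histone acetyltransferase (0.023), and Gnaq, a G protein subunit (0.026). Their own log2 fold changes were 0.11, 0.09 and 0.06, with adjusted p-values of 0.184, 0.249 and 0.467, and none of the 3 was called.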

How the data were processed

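Ventricular RNA was depleted of ribosomal RNA and built into total RNA libraries with a Swift Biosciences kit, per the labels' protocols. The submitters' processing notes list Bowtie2 2.1.0 and RSEM 1.2.15 and, as build, mm10; they assign no role. The deposited values are expected counts per gene, read as RSEM estimates. They are whole numbers and not normalized, and rounding here changed 0 of them. The annotation release, any rounding by the authors and the strand setting are not stated in those notes, the labels or the table. The 92 ERCC sequences held 0 counts and were left out.

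Genes were kept by filterByExpr (minimum count 10) and tested with edgeR 4.0.16 in R 4.3.3, using TMM factors, a robust quasi-likelihood fit with only group in the model, and Benjamini-Hochberg adjustment at 0.05. Standard errors are the fold change divided by the root of F. DESeq2 1.42.0 and limma 3.58.1 were alternatives, and the scripts were tested on simulated data. Places and lengths are from GENCODE M21; copies were sought with blastn 2.17.0. No 2 libraries of a group agreed within sampling noise (20 pairs; chi-square per degree of freedom of at least 4.61).

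Members and lists were chosen with earlier results of these data known. Named genes were all members, each called related gene or the smallest p of a list without calls, and the 3 genes most like Mff; exceptions are marked. Micos10 was listed under an older symbol. Some items are not reported here.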

Additional observations from a re-analysis of the deposited data

Results flagged for a closer look

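Of 36 sets of 5 libraries checked (10 members, 3 called related genes and 5 ratios, each in 2 groups), 3 had a library far from the other 4 by Dixon's ratio, where chance alone gives about 1 in 20. For Dnm1l, Control 5 stood at 92.6 CPM and the other Control libraries at 78.4 to 81.7 CPM. For Fis1, Control 3 stood at 8.61 CPM and the others at 10.2 to 10.8 CPM. The ratio of Mff to Fis1 was 6.38 in Control 3 and 4.88 to 5.30 in the other Control libraries, which follows from the same Fis1 value.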

How the results depend on the processing

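In 20 alternatives, 1 of them added after seeing the data, 0 members were called, and the smallest adjusted p of any member was 0.102 (Mff, DESeq2). Of 200 member values 195 kept their direction; the other 5 were for Yme1l1 (-0.052 to 0.0011 when 1 library was left out) and Mief2 (-0.018 to 0.10). Leaving out 1 library gave a log2 fold change of 0.038 to 0.11 for Mfn2, 0.0073 to 0.11 for Opa1, 0.023 to 0.095 for Dnm1l, 0.039 to 0.13 for Mief1, -0.095 to -0.042 for Mfn1 and -0.088 to -0.013 for Fis1. The log2 ratio difference of Opa1 to Dnm1l turned likewise (-0.025 to 0.050, against 0.0055). Spg7 and Pink1 were called in all 20 alternatives (adjusted p up to 0.0187), Mtfp1 in 9. Calls among related genes ran from 2 to 5 when 1 library was left out; the 5, without HFpEF 1, added Trak1 and, named after its value was seen, Phb2, and Miga1 was called lower with the stricter filter. Calls over all genes ran from 554 (without HFpEF 3) to 1101, against 985, with 630 without Control 1 and 633 without HFpEF 4. DESeq2 made 1422. No scaling moved the median of all genes by more than 0.013.

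With the replicate number as a block, 0 members, 2 related genes and 744 genes in all were called, and Mtfp1 was not (adjusted p = 0.106). Deviations of same-numbered libraries correlated at -0.11 to 0.064, and 3 of 10 libraries correlated best with their own number, so the numbers were not taken as pairs.

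Precision is limited by 5 libraries a group: differences smaller than the intervals given could not be detected.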
